A study of Mus musculus with 6 samples.

Results

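The T cell receptor variable genes, Trav for the α chain and Trbv for the β chain, were followed in CD45+ immune cells taken from B16-F10 melanomas, a mouse melanoma line grown in female C57BL/6 mice of 6 to 10 weeks. All genes whose symbol starts with Trav or Trbv were taken, which gave 163 of the 32285 genes in the count tables, 128 Trav and 35 Trbv. Of these, 79 Trav and 26 Trbv genes had at least 1 UMI (a UMI is a tag that marks 1 captured RNA molecule) in T cells, while 49 Trav and 9 Trbv genes had none. T cells were cells with at least 2 UMIs summed over Cd3d, Cd3e and Cd3g, the genes of the CD3 complex, and there were 6377 of them among 28866 cells kept.

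Both treatment groups carried the same tumour and both received αPD-1, an antibody against the checkpoint receptor PD-1, at 150 µg 3 times per week from day 7. The αPD-1 group (3 samples) had no corin. The αPD-1 + corin group (3 samples) also received 200 µg daily from day 6 of corin, an inhibitor of the CoREST complex of histone demethylase and deacetylases. The arms held 10 mice each, and the labels do not say which or how many mice gave a sample, so p-values measure only the spread between these samples. No untreated tumour was analysed here. The cells had been frozen, thawed, cleared of dead cells and bound to CD45 beads before loading on a 10x Genomics 5′ kit, so the cell classes below are shares of what survived those steps.

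A T cell builds its receptor by joining V, (D) and J segments of a chain's locus, with the RAG recombinase cutting at short signal sequences next to each segment. The V segment forms most of the variable domain, and the hypervariable junction (CDR3) is made where it meets D and J. All descendants of a T cell keep its rearranged genes, so a clone that has grown shows as many cells with the same V genes. The reverse does not hold, because many clones share a V gene and the junction was not read here. The Trbv locus obeys allelic exclusion, so that most T cells carry 1 productive β chain, while the Trav locus rearranges on both alleles, and a pair of Trav transcripts in 1 cell is common.

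The Trbv genes lie on chromosome 6 between 40868163 and 41535386 (GRCm39), 34 on the plus strand and Trbv31 alone on the minus strand at the far end of the locus, from where it joins by inversion. The Trav genes lie on chromosome 14 between 52665385 and 54215135, and each of the 128 is on the plus strand. The germline ends of the V exons that led the results are shown because it is at this edge that the junction is built. Each line gives the last 60 bases of the V exon and the first bases after it, from the GRCm39 sequence on the gene's own strand. The first run of capitals marks the 7 bases directly after the exon, where the recombination signal's heptamer lies, and the second run marks the 9 bases of the nonamer position after a spacer of 23 bases.
Trbv31 (chr6:41534588-41534686, minus strand): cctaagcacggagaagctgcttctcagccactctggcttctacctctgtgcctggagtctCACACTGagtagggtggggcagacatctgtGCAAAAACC
Trbv19 (chr6:41155923-41156021, plus strand): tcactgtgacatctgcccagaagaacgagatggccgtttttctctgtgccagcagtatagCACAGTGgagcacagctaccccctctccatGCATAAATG
Trbv13-2 (chr6:41098707-41098805, plus strand): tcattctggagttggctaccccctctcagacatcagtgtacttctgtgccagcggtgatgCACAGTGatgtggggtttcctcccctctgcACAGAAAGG
Trbv12-1 (chr6:41090942-41091040, plus strand): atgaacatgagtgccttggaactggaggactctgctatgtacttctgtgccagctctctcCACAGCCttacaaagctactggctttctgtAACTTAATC
Trbv14 (chr6:41112491-41112589, plus strand): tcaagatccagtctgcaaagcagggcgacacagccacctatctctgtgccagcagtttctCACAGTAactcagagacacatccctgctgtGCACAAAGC
Trbv15 (chr6:41118533-41118631, plus strand): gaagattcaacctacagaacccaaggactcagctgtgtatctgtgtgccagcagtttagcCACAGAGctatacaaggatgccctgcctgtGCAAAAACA
Trav14n-3 (chr14:53607973-53608071, plus strand): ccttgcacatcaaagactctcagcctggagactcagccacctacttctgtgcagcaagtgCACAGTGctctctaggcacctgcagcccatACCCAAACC
Trav12-2 (chr14:53854312-53854410, plus strand): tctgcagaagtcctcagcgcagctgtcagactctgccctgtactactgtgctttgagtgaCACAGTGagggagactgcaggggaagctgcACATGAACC
Trav19 (chr14:54083225-54083323, plus strand): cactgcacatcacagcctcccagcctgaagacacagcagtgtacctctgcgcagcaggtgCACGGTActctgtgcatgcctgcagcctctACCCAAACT
Trav13-1 (chr14:53782923-53783021, plus strand): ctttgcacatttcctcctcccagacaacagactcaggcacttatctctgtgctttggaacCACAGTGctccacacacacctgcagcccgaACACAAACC

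The heptamer letters CACAGTG, searched on the gene's strand at this position only, followed the V exon in 99 of 128 Trav genes (77.3%) and in 7 of 35 Trbv genes (20.0%). Its first 3 bases were there in 121 Trav and 30 Trbv genes. After the last base of 21757 other protein-coding genes the same letters followed in 0.0138%. The nonamer letters ACAAAAACC stood after the spacer in 4 Trav genes and 1 Trbv gene. A match describes these letters only.

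How well a V gene can be told from its copies sets how its UMIs can be read. The sequenced read was 90 bases, and each window of that length in the spliced sequences of all 35 Trbv genes occurred in no other V gene. In the Trav genes with a UMI, the median share of windows found in no other V gene was 80.1%, and 19 of the 79 had under 50%. The mouse Trav locus holds duplicated blocks, and 3 copies of 1 Trav14 gene from such blocks recur below. Their exons of 309 bases differ at 6 positions between Trav14n-3 and Trav14-3, at 10 between Trav14n-3 and Trav14d-3-dv8, and at 8 between Trav14-3 and Trav14d-3-dv8. They are shown aligned over 276 bases, with capitals at the 12 positions where the 3 are not all alike.
Trav14n-3 (chr14:53607743-53608018, plus strand): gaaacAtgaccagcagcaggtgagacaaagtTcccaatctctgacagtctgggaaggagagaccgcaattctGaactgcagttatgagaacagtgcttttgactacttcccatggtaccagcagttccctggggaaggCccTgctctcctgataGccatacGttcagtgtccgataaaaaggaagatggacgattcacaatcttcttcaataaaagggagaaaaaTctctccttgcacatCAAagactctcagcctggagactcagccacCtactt
Trav14-3 (chr14:54000862-54001137, plus strand): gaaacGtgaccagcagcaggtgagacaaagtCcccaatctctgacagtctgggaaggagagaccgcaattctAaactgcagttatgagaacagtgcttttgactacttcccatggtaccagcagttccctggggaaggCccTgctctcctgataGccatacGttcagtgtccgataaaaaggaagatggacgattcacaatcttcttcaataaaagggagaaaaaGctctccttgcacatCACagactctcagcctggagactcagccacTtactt
Trav14d-3-dv8 (chr14:53316213-53316488, plus strand): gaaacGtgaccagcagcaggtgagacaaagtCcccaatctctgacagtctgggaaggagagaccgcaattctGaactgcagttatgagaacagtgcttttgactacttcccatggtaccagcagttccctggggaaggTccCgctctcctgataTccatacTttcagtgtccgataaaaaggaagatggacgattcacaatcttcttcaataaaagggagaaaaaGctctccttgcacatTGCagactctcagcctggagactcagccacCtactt

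The share of windows found in no other V gene was 70.6% for Trav14n-3, 69.2% for Trav14-3 and 92.1% for Trav14d-3-dv8. Counts for these copies are therefore uncertain as to the copy, and results that rest on them are also given with copies joined. Trav12-2 (95.5%) and Trav19 (100%) do not have this limit to the same degree.

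Before the V genes are compared, the make-up of the cells has to be given, since it differed between the groups. The libraries held 6433 to 13228 barcodes and 52281422 to 84276739 UMIs, and 3655 to 7869 cells each were kept. The number of T cells was 1278, 1084 and 1009 with αPD-1 and 515, 782 and 1709 with αPD-1 + corin. Over all pairs of libraries 299 barcodes were shared, 9 of them between T cells, and in 0 of those 9 did the Trbv gene match. B cell markers summed over T cells (5 of 5 markers detected in every sample) came to 832 to 1476 CPM (counts-per-million) with αPD-1 and 24.3 to 87.3 CPM with αPD-1 + corin. Macrophage markers (5 of 5 detected) came to 1567 to 1996 against 2151 to 4831 CPM. Neutrophil markers came to 12.7 to 66.1 against 213 to 7223 CPM, with Retnlg at 0 in αPD-1 sample 2 only. Melanoma, NK and γδ T cell markers overlapped between the groups. RNA of other cells in T cell barcodes thus moved with treatment, and its part in the V gene results was not tested, except where a value without the affected cells is given.

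CD8 cells were T cells with Cd8a or Cd8b1 and no Cd4 or Foxp3 UMI. CD8 effector cells were those with at least 3 UMIs over Gzma, Gzmb, Gzmk, Prf1, Nkg7, Ccl5 and Ifng (cytotoxic granule, chemokine and cytokine genes) and more of these than of Ccr7, Lef1, Tcf7 and Igfbp4 (genes of naive T cells). There were 393, 378 and 385 CD8 effector cells with αPD-1 and 198, 342 and 1239 with αPD-1 + corin. CD4 cells (Cd4 without Cd8 or Foxp3) numbered 145, 102 and 83 against 51, 65 and 46, and Foxp3+ cells, the regulatory T cells, 65, 49 and 44 against 50, 101 and 21. Naive-like CD8 cells made up 14.7%, 13.7% and 12.4% of T cells with αPD-1 and 1.36%, 0.77% and 0.53% with αPD-1 + corin, that is 7, 6 and 9 cells. In Foxp3+ cells all 4 regulatory T cell markers were detected in every sample, at 2448 to 2496 CPM with αPD-1 and 1307 to 2453 CPM with αPD-1 + corin, the lowest in αPD-1 + corin sample 1.

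V gene RNA was read in a large part of T cells and rarely in B cells and macrophages, the other cells in which it was counted. A Trbv gene reached 2 UMIs in 44.8%, 62.2% and 49.4% of CD8 effector cells with αPD-1 and in 44.9%, 49.1% and 53.8% with αPD-1 + corin. The means were 52.1% ± 9.01 (SD, n = 3) and 49.3% ± 4.44 (SD, n = 3), which differed by less than the spread (exact permutation test, two-sided, p = 0.7, adjusted over 4 classes 0.7). B cells gave 0 to 0.826% and macrophages 0 to 0.128%, which is the background of the measurement. With 3 samples against 3 the smallest p this test can give is 0.1.

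In CD4 cells the share was 49.0%, 59.8% and 36.1% with αPD-1 and 25.5%, 30.8% and 23.9% with αPD-1 + corin, with no overlap (48.3% ± 11.8 against 26.7% ± 3.59, SD, n = 3; exact permutation p = 0.1, adjusted 0.4). After each cell was thinned to 1000 UMIs the CD4 shares were 16.3% ± 3.19 and 10.8% ± 3.02 (SD, n = 3; exact permutation p = 0.2). Foxp3+ cells gave 38.5%, 69.4% and 34.1% against 24.0%, 26.7% and 38.1%, which overlapped (exact permutation p = 0.2, adjusted 0.4). B cell markers were at 880 to 1590 CPM in CD4 cells with αPD-1 and at 0 to 162 CPM with αPD-1 + corin (all 5 markers at 0 in αPD-1 + corin sample 3), and macrophage markers at 1177 to 1994 against 1793 to 6635 CPM. Neutrophil markers were at 0 to 124 against 128 to 6712 CPM. Their part in the CD4 difference was not tested. Trav RNA was sparser: a Trav gene reached 2 UMIs in 28.5%, 26.5% and 11.4% of CD8 effector cells with αPD-1 and in 10.6%, 34.5% and 30.2% with αPD-1 + corin, so the samples of a group differed more than the groups did.

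**Figure D1:**
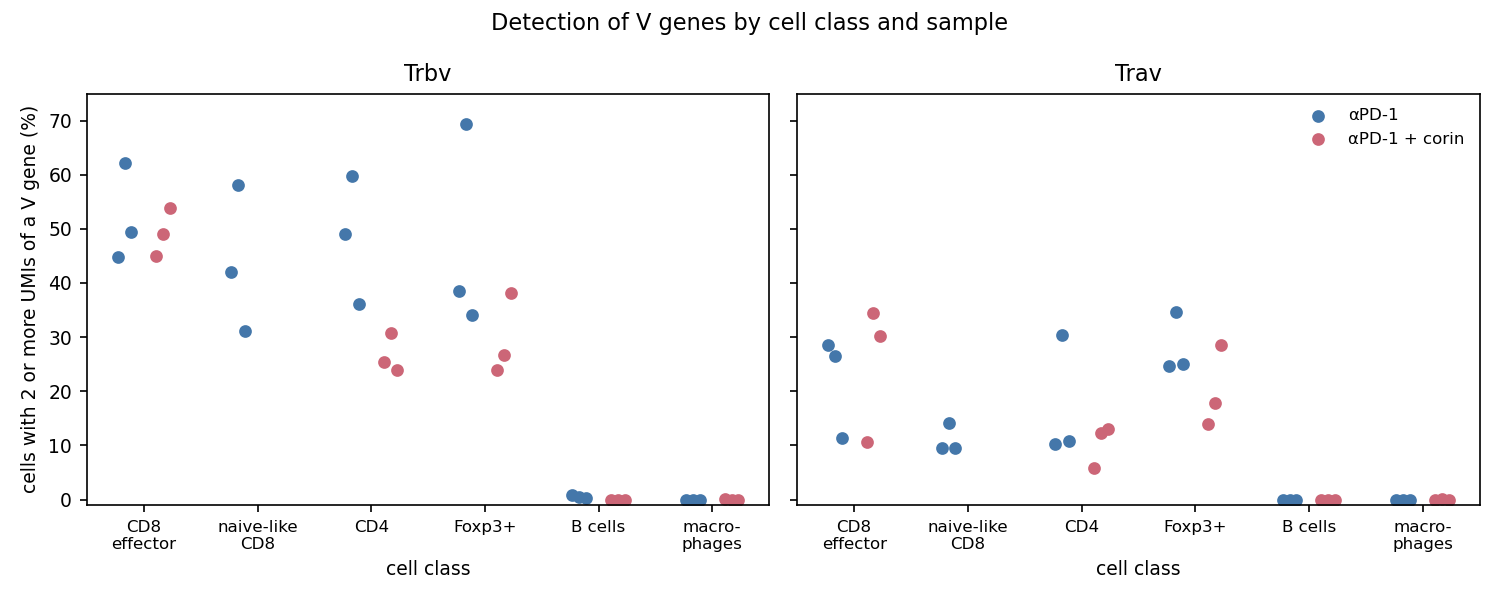
Percent of cells (y axis) with at least 2 UMIs of a Trbv gene (left) or a Trav gene (right) in each cell class (x axis). Points are the samples, coloured by group. T cell classes lie far above B cells and macrophages, and the CD4 points of the groups do not overlap for Trbv.

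To describe usage, a cell was called for the V gene that had at least 2 UMIs and stood alone at the top. This gave 2766 T cells with a Trbv call and 1192 with a Trav call, from 17302 Trbv and 6786 Trav UMIs. In CD8 effector cells 172, 232 and 186 cells were called for Trbv with αPD-1 and 88, 164 and 623 with αPD-1 + corin. Shares are given with Wilson 95% intervals, which cover counting error over cells only.

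Over all T cells the 5 Trbv genes with the highest mean share over the 6 samples were Trbv31 (14.9%), Trbv19 (10.7%), Trbv13-2 (8.26%), Trbv1 (7.18%) and Trbv12-1 (6.79%). Trbv31 ran from 1.85% to 4.33% in 4 samples and stood at 31.7% and 46.5% in αPD-1 + corin samples 2 and 3, while Trbv1 stayed between 3.55% and 9.88%. The 5 Trav genes with the highest mean share were Trav14n-3 (13.7%), Trav12-2 (9.41%), Trav19 (5.06%), Trav14-3 (4.21%) and Trav13-1 (4.2%). Trav14n-3 stood at 21.2% in αPD-1 sample 1 and 50.1% in αPD-1 + corin sample 3, and Trav12-2 and Trav19 at 37.8% and 23.8% in αPD-1 + corin sample 2 alone. The means of Trbv31, Trav14n-3, Trav12-2 and Trav19 are therefore set by 1 or 2 samples.

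In αPD-1 sample 1 Trbv13-2 led the CD8 effector cells with 41 of 172 called cells (23.8%, interval 18.1 to 30.7%), followed by Trbv15 with 35. In αPD-1 sample 2 Trbv19 led with 70 of 232 (30.2%, interval 24.6 to 36.4%), followed by Trbv14 with 53. In αPD-1 sample 3 Trbv12-1 led with 65 of 186 (34.9%, interval 28.5 to 42.0%), followed by Trbv19 with 29. The 3 αPD-1 samples thus differed in their leading gene, and each leader held at least 23.8% of the called cells.

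With αPD-1 + corin, Trbv19 led in sample 1 with 21 of 88 cells (23.9%, interval 16.2 to 33.7%), ahead of Trbv13-2 with 13. Trbv31 led in sample 2 with 82 of 164 (50%, interval 42.4 to 57.6%) and in sample 3 with 331 of 623 (53.1%, interval 49.2 to 57.0%). Trbv14 came next in both, with 16 cells (tied with Trbv19) and 59 cells. In the other 4 samples Trbv31 took 0 to 2.16% of the called CD8 effector cells. The inverted gene at the end of the locus was therefore the leader in 2 of 3 αPD-1 + corin samples and rare in the third, so its level was a property of samples 2 and 3 and not of the whole group.

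The same genes could be high in samples of either group. Among called CD8 effector cells, Trbv19 took 7.56%, 30.2% and 15.6% with αPD-1 and 23.9%, 9.76% and 7.38% with αPD-1 + corin. The call keeps only the top gene, which lowers the last value. In αPD-1 + corin sample 3, 227 CD8 effector cells held at least 2 Trbv19 UMIs, and 46 were called for it. Of the 227, 187 also held at least 2 Trbv31 UMIs. In summed UMIs Trbv19 was at 21.9, 130 and 56.0 CPM against 102, 35.6 and 130 CPM. Trbv14 took 1.74%, 22.8% and 5.38% against 2.27%, 9.76% and 9.47%. Trbv13-2 took 23.8%, 1.72% and 2.15% against 14.8%, 3.05% and 2.41%. These ranges overlap, and samples of a group lay far apart. Trbv12-1 took 1.74%, 5.60% and 34.9% against 0%, 4.27% and 6.74%, and Trbv15 20.3%, 1.29% and 2.15% against 2.27%, 1.22% and 1.61%, so each was high in 1 αPD-1 sample alone.

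CD4 and Foxp3+ cells were spread over more genes. In CD4 cells Trbv13-2 held 13.2%, 9.84% and 13.3% of called cells with αPD-1 and 23.1%, 10.0% and 18.2% with αPD-1 + corin, and it was the leader or tied for it in 3 of 6 samples. The leaders elsewhere were Trbv31 with 7 of 61 cells in αPD-1 sample 2, Trbv3 with 5 of 20 in αPD-1 + corin sample 2 and Trbv20 with 4 of 11 in αPD-1 + corin sample 3. In Foxp3+ cells the leaders were Trbv1 (4 of 25, tied with Trbv13-2), Trbv16 (6 of 33) and Trbv3 (3 of 15) with αPD-1, and Trbv13-2 (3 of 12) and Trbv1 (5 of 27) in αPD-1 + corin samples 1 and 2. αPD-1 + corin sample 3 had 8 called Foxp3+ cells, too few to be used. These leads rest on 3 to 9 cells, few enough for the order of genes to be uncertain.

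**Figure D2:**
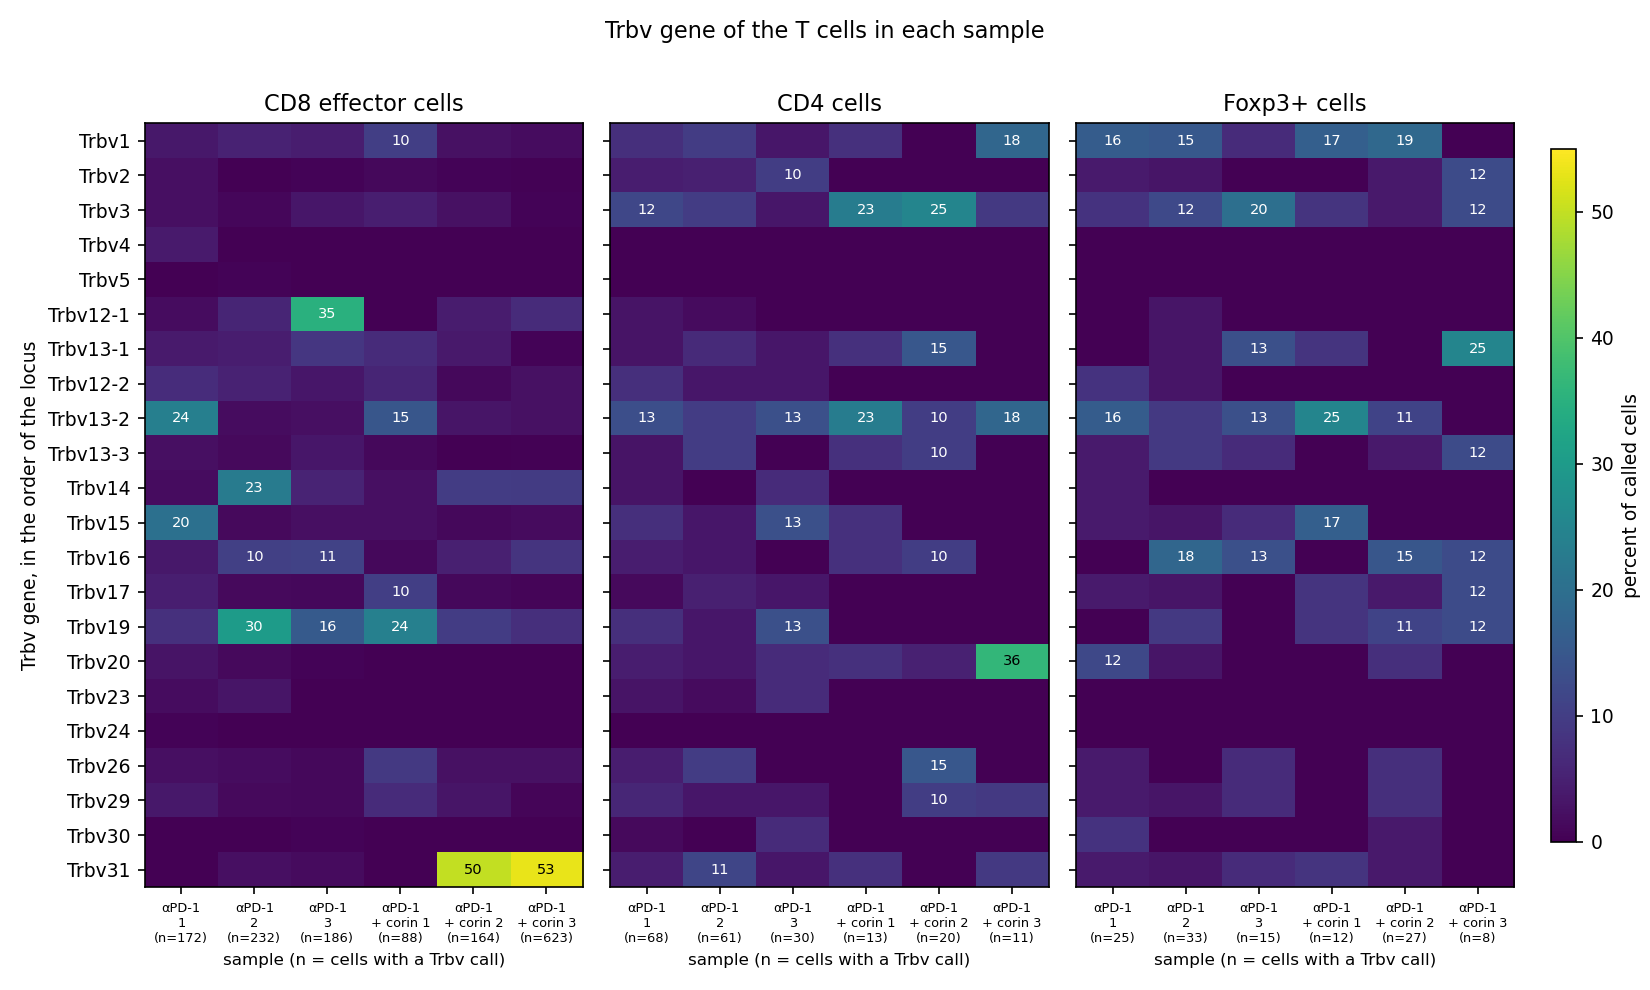
Heat maps of Trbv usage in CD8 effector, CD4 and Foxp3+ cells. Rows are Trbv genes in the order of the locus, columns are the 6 samples with their number of called cells, and colour is the percent of called cells (values of 10% or more are printed). Trbv31 stands at 50% and 53.1% in CD8 effector cells of αPD-1 + corin samples 2 and 3, and no CD4 or Foxp3+ column with more than 20 called cells reaches 20%. The αPD-1 + corin CD4 columns have fewer (13, 20 and 11 called cells), and their highest values were 23.1%, 25% and 36.4%. Foxp3+ columns with fewer cells reached 20% to 25%.

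Concentration was measured as the coincidence, the percent of all pairs of called cells in a sample that carry the same gene; 100 divided by it is the effective number of genes in use. In CD8 effector cells the Trbv coincidence was 11.7%, 16.4% and 17% with αPD-1 and 11.4%, 27.4% and 31% with αPD-1 + corin. The means were 15% ± 2.92 and 23.3% ± 10.4 (SD, n = 3), and the groups overlapped, because αPD-1 + corin sample 1 was the lowest of the 6. The effective number of Trbv genes ranged from 8.78 in αPD-1 + corin sample 1 to 3.23 in sample 3. The difference of 8.24 percentage points was 14.2 without αPD-1 + corin sample 1 and 4.38 without αPD-1 + corin sample 3. It was -1.59 when cells were thinned to 1000 UMIs, where 27 to 165 called cells per sample were left. B cell markers in these cells were at 556 to 1202 CPM with αPD-1 and 24.1 to 85.8 CPM with αPD-1 + corin, macrophage markers at 1501 to 2320 against 1915 to 4586 CPM and neutrophil markers at 3.73 to 74.9 against 152 to 6465 CPM. Without cells holding at least 2 UMIs of the B cell or the macrophage list, which does not remove cells with neutrophil UMIs, the Trbv coincidence was 9.69%, 16.6% and 19.3% against 10.8%, 28.6% and 31%.

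Thinning weighs V genes by how much of their RNA a cell holds. At 1000 UMIs the Trbv coincidence of CD8 effector cells was 23.3%, 16% and 10.9% with αPD-1 and 7.98%, 7.14% and 30.3% with αPD-1 + corin. Trbv31 still led αPD-1 + corin sample 3 with 87 of 165 cells (52.7%). In αPD-1 + corin sample 2 the leader became Trbv14 with 5 of 29 cells, so its lead for Trbv31 could not be seen at that depth. The Trbv31 cells of αPD-1 + corin sample 2 held a median of 3 Trbv31 UMIs and those of sample 3 a median of 5, while the Trbv15 cells of αPD-1 sample 1 held a median of 8 Trbv15 UMIs. The concentration of αPD-1 + corin sample 3 was thus seen at both depths and that of sample 2 only with all UMIs.

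Trav calls, with fewer cells, also put αPD-1 + corin samples 2 and 3 highest, while the order of samples otherwise differed. The Trav coincidence in CD8 effector cells was 14.5%, 6.6% and 6.27% with αPD-1 (111, 99 and 42 called cells) and 8.57%, 37.5% and 32.0% with αPD-1 + corin (21, 105 and 360 called cells). The means were 9.13% ± 4.67 and 26% ± 15.4 (SD, n = 3), again with overlap through αPD-1 + corin sample 1, and the difference of 16.9 percentage points was 25.6 without that sample and 11.2 without αPD-1 + corin sample 2. With the duplicated Trav copies joined, the values were 24.3%, 7.68% and 6.50% against 7.79%, 37.5% and 49.2%. Joining moved αPD-1 sample 1 and αPD-1 + corin sample 3 most, since the joined Trav14-3 copies then held 54 of 114 cells (47.4%) and 252 of 363 cells (69.4%) in them.

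The leading Trav genes of CD8 effector cells were Trav14n-3 (37 of 111 called cells), Trav13-1 (15 of 99) and Trav12-1 (9 of 42) in the αPD-1 samples. With αPD-1 + corin they were Trav14-3 (4 of 21, tied with Trav3-3), Trav12-2 (55 of 105, followed by Trav19 with 34) and Trav14n-3 (194 of 360, followed by Trav14d-3-dv8 with 55). Samples 2 and 3, which shared Trbv31, thus had different leading α genes. In CD4 and Foxp3+ cells no Trav gene led with more than 3 cells in the samples with at least 10 called cells, and the Trav coincidence was 0.952% and 2.15% in CD4 cells of αPD-1 samples 1 and 2 and 0 to 3.92% in Foxp3+ cells.

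A cell called for both chains narrows the identity further. Among CD8 effector cells with both calls (62, 75 and 29 with αPD-1, 16, 72 and 253 with αPD-1 + corin), the same pair of genes was found in 6.93%, 4.68% and 7.88% of cell pairs with αPD-1 and in 8.33%, 31.9% and 35.4% with αPD-1 + corin. The means were 6.50% ± 1.64 and 25.2% ± 14.7 (SD, n = 3) and the groups did not overlap, although 8.33% and 7.88% lay close and the 8.33% came from 16 cells. The groups overlapped when cells with a second called gene were left out, when Trav copies were joined, when the effector sum had to reach 6 and when the Cd3 sum had to reach 4. The difference of 18.7 percentage points was 27.2 without αPD-1 + corin sample 1 and 13.6 without αPD-1 + corin sample 3. The leading pairs were Trav14-3 with Trbv15 (12 cells), Trav13-1 with Trbv14 (11) and Trav12-1 with Trbv19 (8) with αPD-1. With αPD-1 + corin they were Trav14-3 with Trbv13-2 (4), Trav12-2 with Trbv31 (34 of 72, 47.2%) and Trav14n-3 with Trbv31 (149 of 253, 58.9%). Among the cells called for both chains, the Trav coincidence was 8.99%, 6.92% and 8.62% with αPD-1 and 9.17%, 38.3% and 44.9% with αPD-1 + corin, and the Trbv coincidence 14.1%, 14.2% and 22.4% against 14.2%, 62.8% and 42.3%. Divided by the product of these single-chain values of the same cells, the pair coincidence was 5.48, 4.78 and 4.08 with αPD-1 and 6.42, 1.33 and 1.86 with αPD-1 + corin. This quotient is 1 where α and β genes are drawn independently, and it was above 1 in 6 of 6 samples. The pair coincidence cannot exceed the smaller single-chain value, so the quotient has less room to rise where single chains are concentrated. Its size in αPD-1 + corin samples 2 and 3 therefore cannot be compared with that of the other samples.

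In CD4 cells the Trbv coincidence was 5.71%, 6.23% and 5.75% with αPD-1 and 7.69%, 10.53% and 14.5% with αPD-1 + corin. The groups did not overlap (5.89% ± 0.291 against 10.9% ± 3.44, SD, n = 3), but the αPD-1 + corin values rest on 13, 20 and 11 called cells and the αPD-1 values on 68, 61 and 30. With the call set at 3 UMIs the difference of 5.03 percentage points became -0.147. In Foxp3+ cells the values were 6.00%, 7.58% and 5.71% against 7.58% and 7.12% in αPD-1 + corin samples 1 and 2. In the same sample the coincidence was higher in CD8 effector than in CD4 cells in 6 of 6 samples, a description for which the effector gate did not use any V gene.

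Naive-like CD8 cells, the class in which little clonal growth is known to occur, could be measured in αPD-1 samples only. There the Trbv coincidence was 6.56%, 8.31% and 7.62% (7.5% ± 0.880, SD, n = 3), below the CD8 effector cells of the same sample in 3 of 3. The leaders were Trbv15 with 8 of 76 cells (tied with Trbv16 and Trbv29), Trbv12-1 with 16 of 79 and Trbv15 with 6 of 36. Trbv12-1 was thus at 20.3% of naive-like cells in αPD-1 sample 2, where it held 5.60% of the effector cells.

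**Figure D3:**
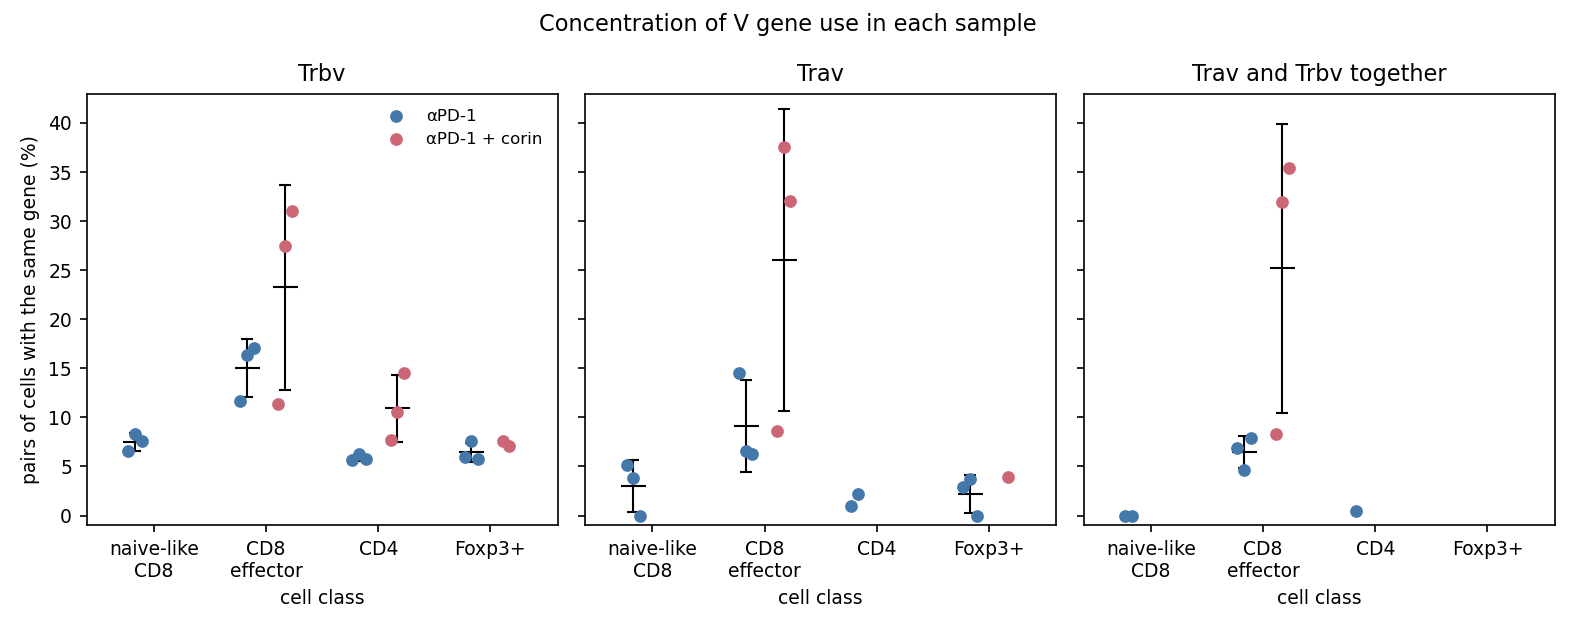
Percent of pairs of called cells with the same gene (y axis), for Trbv, Trav and both chains together, in naive-like CD8, CD8 effector, CD4 and Foxp3+ cells. Points are samples coloured by group, and bars are the mean ± SD where a group has 3 samples. CD8 effector cells of αPD-1 + corin samples 2 and 3 stand highest, while αPD-1 + corin sample 1 sits among the αPD-1 samples.

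Likeness of usage between samples was described with the Morisita index, which is near 1 for samples that draw on the same gene frequencies. For Trbv in CD8 effector cells it ran from 0.294 to 0.598 between αPD-1 samples, from 0.116 to 0.697 between groups and from 0.153 to 1.00 between αPD-1 + corin samples. The value of 1.00 joined αPD-1 + corin samples 2 and 3, which share Trbv31. Foxp3+ cells gave 0.946 to 1.34, naive-like CD8 cells 0.777 to 1.05 and CD4 cells 0.410 to 1.25. The effector cells of most pairs of samples were thus unlike in usage. Foxp3+ and naive-like values lay nearer to 1 or above it, while the CD4 values were widely spread. The Foxp3+ and CD4 values rest on far fewer called cells than those of effector cells, and the naive-like values on αPD-1 samples only. Likeness in these classes is therefore uncertain.

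The partners of the leading genes showed whether αPD-1 + corin samples 2 and 3 shared more than Trbv31. They did not share the α chain genes. In sample 2, of 82 CD8 effector cells called for Trbv31, 65 (79.3%) held a Trav19 UMI and 63 (76.8%) a Trav12-2 UMI, and 53 (64.6%) held both. The other 82 called cells of that sample held Trav19 in 4 and Trav12-2 in 8. In sample 3, of 331 such cells, 248 (74.9%) held Trav14n-3, against 54 of the other 292.

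Counted over CD8 effector cells with at least 1 UMI of each gene, Trbv31 with Trav12-2 was found in 0, 0 and 1 cells with αPD-1 and in 0, 93 and 2 with αPD-1 + corin. Trbv31 with Trav19 was found in 89 cells of αPD-1 + corin sample 2 and in 0 of every other sample. Trbv31 with Trav14n-3 was found in 3, 1 and 2 cells with αPD-1 and in 0, 0 and 324 with αPD-1 + corin. As shares of CD8 effector cells, the sample 2 combinations made up 27.2% and 26%, and the sample 3 combination 26.2%. The combinations were chosen after their values were seen, and their counts are a description.

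A second β chain gene travelled with Trbv31 in αPD-1 + corin sample 3. There 324 CD8 effector cells held UMIs of both Trbv31 and Trbv19, against 0, 1, 1, 1 and 2 cells in the other samples. Trav14n-3 with Trbv19 was found in 265 cells there and in 0 to 3 elsewhere. Of 397 cells with at least 2 Trbv31 UMIs, 187 also had at least 2 Trbv19 UMIs, with medians of 5 Trbv31 and 3 Trbv19 UMIs in a cell. Of these 187, 151 (80.7%) held Trav14n-3, and of the 210 without Trbv19 at that level 141 (67.1%) did. The median total was 6407 UMIs in the cells with both and 5861.5 in the others.

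Barcodes with 2 Trbv genes can hold a pair of cells, so the general rate matters here. Among T cells with a Trbv gene at 2 UMIs, 15.3%, 14.3% and 11% had a second one with αPD-1, and 5.49%, 3.81% and 33.3% with αPD-1 + corin (exact permutation p = 1.0, n = 3 and 3). In αPD-1 + corin sample 3, 184 of the 280 such cells (65.7%) held Trbv19 with Trbv31, and without these the share was 11.4%. Whether these cells carry both chains or hold RNA of more than 1 cell was not tested.

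The αPD-1 samples had combinations of their own, each in far fewer cells. Trbv15 with Trav14-3 was found in 22 CD8 effector cells of αPD-1 sample 1 and in 0 or 1 of the others. Trbv13-2 with Trav14-2 was found in 15 cells of the same sample and in 0 or 1 elsewhere. Trbv14 with Trav13-1 was found in 21 cells of αPD-1 sample 2, in 2 of αPD-1 sample 3 and in 0 of the rest. Trbv19 with Trav12-1 stood at 12 cells in αPD-1 sample 3 and at 0 to 2 elsewhere. Each of these combinations was thus concentrated in 1 sample.

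Trbv14 shows that the same β gene came with different α genes in different samples. Of 53 Trbv14 cells in αPD-1 sample 2, 20 held Trav13-1, against 7 of the other 179 called cells. Of 59 Trbv14 cells in αPD-1 + corin sample 3, 31 held Trav4-2, against 2 of the other 564. Trbv14 with Trav4-2 was found in 37 cells of αPD-1 + corin sample 3 and in 0 of every other sample. For Trbv13-2 the partners were Trav14-2 in 14 of 41 cells of αPD-1 sample 1 and Trav14-3 in 7 of 13 cells of αPD-1 + corin sample 1, against 1 of 131 and 1 of 75 other cells.

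Trbv19 with Trav3-3 was found in samples of both groups, in 3, 10 and 1 cells with αPD-1 and in 5, 0 and 72 with αPD-1 + corin. The 72 cells came from αPD-1 + corin sample 3, where Trbv19 also accompanied Trbv31. Some cells called for a leading Trav gene had no Trbv UMI. Of all CD8 effector cells, 75.3% and 77.2% had a Trbv UMI in αPD-1 samples 1 and 2, and 68.0% in αPD-1 + corin sample 3. Of 55 Trav14d-3-dv8 cells in αPD-1 + corin sample 3, 39 had none, while of 194 Trav14n-3 cells there only 2 had none. Of Trav14n-3 cells, 8 of 13 had none in αPD-1 sample 2. The same held for 11 of 37 in αPD-1 sample 1, which is near the general rate of that sample.

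**Figure D4:**
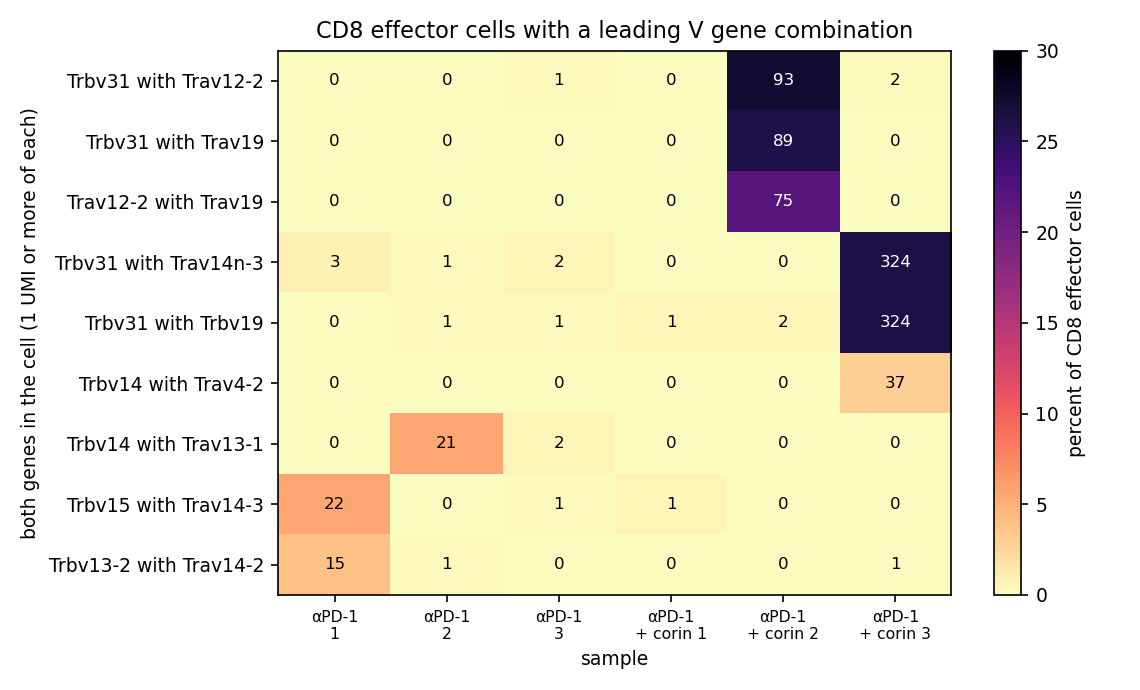
Numbers of CD8 effector cells with at least 1 UMI of both genes, for 9 gene combinations (rows) in the 6 samples (columns). The printed number is cells and the colour is the percent of CD8 effector cells in that sample. Each of the large counts (93, 89 and 324 cells) stands in a single sample.

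The constant gene used with a V gene is a readout that the call did not use. A β chain ends in Trbc1 or Trbc2 according to its J segment, so a set of cells from 1 clone should hold 1 of them. The copies are nearly identical, so the split of UMIs between them is uncertain, and the values are given as a description with Wilson intervals. In αPD-1 sample 1, Trbc1 made up 5.88% (2.31 to 14.2%) of Trbc UMIs in Trbv15 cells and 12.1% (6.89 to 20.4%) in Trbv13-2 cells, against 41.0% (34.0 to 48.4%) in the other called cells. In αPD-1 + corin sample 1 the Trbv13-2 cells had 9.09% (2.53 to 27.8%) against 42.6%. The Trbv19 cells that led αPD-1 + corin sample 1 had 40% (29.0 to 52.1%), near the other cells. Trbv15 and Trbv13-2 cells of these samples were thus read mostly with Trbc2 and the Trbv19 cells were not.

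The other leading genes went both ways. In αPD-1 sample 3 the Trbv12-1 cells had 52.8% (45.1 to 60.4%) against 30.7%, and in αPD-1 + corin sample 3 the Trbv14 cells had 65.3% (58.8 to 71.3%) against 43.5% (38.9 to 48.2%). The Trbv31 cells had 45.5% (39.5 to 51.6%) in αPD-1 + corin sample 2 and 48.7% (45.0 to 52.5%) in sample 3, against 41.1% and 43.5%. Trbv14 cells of αPD-1 + corin sample 2 had 23.1% (12.6 to 38.3%) against 41.1%, so the same gene lay below the other cells there and above them in sample 3. Trbv19 cells of αPD-1 sample 3 had 27.4% against 30.7%. In αPD-1 sample 2 Trbv19 cells (33.6%) and Trbv14 cells (41.0%) were near the other cells (33.5%). J segments themselves were rarely read, a Trbj gene in 1.94% to 7.01% and a Traj gene in 1.94% to 7.67% of T cells, so they could not settle the split. Of 28 Trbv31 cells in αPD-1 + corin sample 3 with a Trbj UMI, 16 held Trbj2-1.

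Genes outside the V loci were compared between the cells of the largest combinations and the rest of the CD8 effector cells of the same sample, as levels in summed UMIs with no test. In αPD-1 + corin sample 2, the 63 cells called for Trbv31 that held Trav12-2 had 340 CPM of Pdcd1, the gene of PD-1, against 156 CPM in the other 279. They had 224 against 108 CPM of Havcr2, which codes for the checkpoint receptor TIM-3, and 282 against 195 CPM of Mki67, a proliferation marker. In αPD-1 + corin sample 3, the 248 cells called for Trbv31 that held Trav14n-3 had 311 against 246 CPM of Pdcd1, 175 against 170 CPM of Havcr2 and 289 against 214 CPM of Mki67. Genes that the effector gate used differed between the samples in their direction: Gzmb (granzyme B) was at 1789 against 584 CPM in sample 2 and at 1269 against 1342 CPM in sample 3, and Ccl5, a chemokine, at 3706 against 2226 and at 4561 against 5178 CPM. The combination cells of both samples were also read more deeply, with median totals of 8310 against 6811 UMIs in sample 2 and 6451 against 4821 in sample 3, and the part of depth in these differences was not tested.

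Smaller sets of cells in the αPD-1 samples had Pdcd1 both above and below the rest. The 20 Trbv14 cells with Trav13-1 in αPD-1 sample 2 had 377 against 263 CPM, the 20 Trbv15 cells with Trav14-3 in αPD-1 sample 1 had 188 against 146 CPM, and the 65 Trbv12-1 cells of αPD-1 sample 3 had 245 against 156 CPM. The 13 Trbv12-1 cells of αPD-1 sample 2 had less, 225 against 273 CPM, and the 42 Trbv12-1 cells of αPD-1 + corin sample 3 were near the rest with 272 against 261 CPM. Median totals were 9177 against 6484 UMIs for the Trbv14 cells and 7724.5 against 5772 for the Trbv15 cells.

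UMIs summed over the cells of a class in each sample were then compared across all genes with edgeR's quasi-likelihood test, so that V genes could be read against the rest of the transcriptome. In such sums fewer cells with a gene and less RNA per cell cannot be told apart. In T cells 46 of the 163 V genes (28 Trav and 18 Trbv) passed the filter on low counts. At an adjusted p under 0.05, 5 of the 46 were called (10.9%), against 12.7% of all 12310 genes tested, so V genes were not called more often than the background. All 5 were lower with αPD-1 + corin, and the median log2 fold change of the 46 was -0.67, against 0.03 over all genes tested.

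Trbv12-2 was at 29.4, 30.3 and 19.6 CPM with αPD-1 and at 12.7, 7.94 and 14.6 CPM with αPD-1 + corin, a log2 fold change of -1.14 ± 0.26 (SE, adjusted p = 0.0320). Trbv13-3 was at 23.2, 26.4 and 14.7 against 11.2, 4.39 and 6.32 CPM (-1.61 ± 0.37, adjusted p = 0.0346). Trav12-1 was at 3.70, 4.04 and 6.54 against 0.385, 1.46 and 0.980 CPM (-2.18 ± 0.44, adjusted p = 0.0218). For these and for Trav14-1 (-1.67 ± 0.42, adjusted p = 0.0411) and Trav12-3 (-1.15 ± 0.29, adjusted p = 0.0432) the groups did not overlap. The number called was 0 without αPD-1 sample 2, 1 without αPD-1 sample 1, 2 without αPD-1 + corin sample 2, 3 without αPD-1 sample 3 or αPD-1 + corin sample 3, and 5 without αPD-1 + corin sample 1. These were not the same 5 genes, since Trav12-3 (adjusted p 0.0582 to 0.166) and Trav14-1 (0.0674 to 0.183) lost their call whichever library was left out. It was also 0 when cells with B cell or macrophage UMIs were left out. T cells of the groups also differed in their share of naive-like CD8 and of effector cells, as given above, and the part of that shift was not tested.

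Within CD8 effector cells 19 V genes (4 Trav and 15 Trbv) were tested and 0 were called, against 2.13% of 10629 genes. At an unadjusted p under 0.05 there were 3, and DESeq2 called 2. Trbv31 was at 4.61, 15.2 and 4.56 CPM with αPD-1 and at 3.66, 149 and 329 CPM with αPD-1 + corin. Samples 2 and 3 stood far above every other sample, and sample 1 was the lowest of the 6. Its log2 fold change of 4.31 ± 1.48 (SE) therefore did not pass (adjusted p = 0.249). Trbv13-3, at 18.1, 5.42 and 15.3 against 2.75, 1.23 and 4.25 CPM with no overlap, had -2.06 ± 0.54 (adjusted p = 0.107). Trbv12-2, at 29.2, 33.2 and 22.8 against 19.2, 3.69 and 13.6 CPM, had -1.30 ± 0.47 (adjusted p = 0.220). Without αPD-1 sample 2, 1 V gene was called.

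In CD4 cells 7 V genes were tested and 2 were called, both lower with αPD-1 + corin, against 16.4% of 5590 genes. Trbv19 was at 49.99, 27.4 and 56.6 CPM against 4.06, 8.59 and 9.14 CPM, a log2 fold change of -2.49 ± 0.52 (adjusted p = 0.00262), from 29, 11 and 21 against 1, 3 and 2 UMIs. Trbv15 was at 51.7, 47.3 and 45.8 against 28.5, 0 and 0 CPM (-2.37 ± 0.71, adjusted p = 0.0407), from 30, 19 and 17 against 7, 0 and 0 UMIs. The counts were small, and the groups did not overlap for either gene. Without αPD-1 sample 1, αPD-1 sample 2 or αPD-1 + corin sample 2 the number called was 1. It was 0 when the Cd3 sum had to reach 4 and when the number of cells with a UMI of the gene was tested in place of UMIs. In Foxp3+ cells 3 V genes were tested and 0 called, against 4.33% of 4780 genes (0 at an unadjusted p under 0.05, and 0 by DESeq2): Trbv13-2 had -0.70, Trbv1 -1.39 and Trbv17 -1.17, with adjusted p of 0.379, 0.457 and 0.721. Without αPD-1 sample 1 or αPD-1 + corin sample 3, 1 was called. In Foxp3+ cells B cell markers were at 739 to 1140 against 55 to 146 CPM macrophage markers at 711 to 1367 against 1979 to 3113 CPM and neutrophil markers at 0 to 51.3 against 370 to 7165 CPM, and their part was not tested.

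Classes of the same sample were compared with the sample as a term in the fit. Between CD8 and CD4 cells, 15 V genes were tested and 1 was called, against 4.73% of 8244 genes (3 at an unadjusted p under 0.05, and 2 called by DESeq2). Trbv3 was lower in CD8 cells, with a log2 fold change of -1.62 ± 0.26 (adjusted p = 0.000969). It was at 29.3, 9.99 and 16.7 CPM in CD8 and 68.9, 60.8 and 15.3 CPM in CD4 cells with αPD-1, and at 19.7, 14.5 and 6.13 against 56.5, 64.0 and 13.6 CPM with αPD-1 + corin. It was lower in CD8 cells in 5 of 6 samples, with αPD-1 sample 3 the exception. The number called was 2 without αPD-1 sample 1 and 3 without αPD-1 + corin sample 1. Between Foxp3+ and CD4 cells 3 V genes were tested and 0 called, against 5.16% of 5078 genes (1 at an unadjusted p under 0.05, and 0 by DESeq2): Trbv13-2 had -0.55 ± 0.24 (adjusted p = 0.205), Trbv3 -0.86 (adjusted p = 0.610) and Trbv1 0.45 (adjusted p = 0.662).

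CD8 effector cells were compared with the other CD8 cells, which numbered 227, 198 and 158 with αPD-1 and 14, 21 and 24 with αPD-1 + corin. Of 15 V genes tested, 5 were called (33.3%), all lower in effector cells, against 24.6% of 8602 genes. Trbv29 was at 20.3, 11.6 and 6.49 CPM in effector cells and 56.5, 38.9 and 23.2 CPM in the other CD8 cells with αPD-1. With αPD-1 + corin it was at 26.6, 9.75 and 3.48 CPM in effector cells against 60.7, 0 and 0 CPM, the zeros from 21 and 24 other CD8 cells. Its log2 fold change was -1.55 ± 0.26 (adjusted p = 8.24e-07). Trbv1, at the other end of the locus from Trbv31, was at 19.1, 32.8 and 13.4 against 27.2, 94 and 40.6 CPM with αPD-1 and at 33.2, 8.90 and 14.1 against 0, 77.9 and 59.9 CPM with αPD-1 + corin (-1.41 ± 0.29, adjusted p = 0.00141). Trbv3 (-0.88 ± 0.28, adjusted p = 0.0135), Trbv26 (-1.16 ± 0.36, adjusted p = 0.0161) and Trbv13-3 (-1.65 ± 0.45, adjusted p = 0.0206) followed. Their samples went both ways: Trbv3 was higher in effector cells in 3 of 6 samples, Trbv26 in 2 and Trbv13-3 in 2. With 1 sample left out, their adjusted p reached 0.440, 0.192 and 0.0608. Without αPD-1 sample 1 the number called was 2.

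In the αPD-1 samples alone, where the other CD8 cells were numerous, 18 V genes were tested and 7 were called, against 28.1% of 9863 genes. Trbv29 (-1.69), Trbv1 (-1.32), Trbv26 (-1.49), Trbv3 (-0.89), Trbv20 (-1.61, adjusted p = 0.0128) and Trav12-2 (-1.31, adjusted p = 0.0294) were lower in effector cells. Trbv13-3 did not pass there (-1.56, adjusted p = 0.312). Trbv19 was higher (log2 fold change 1.52, adjusted p = 0.00267), with 57, 360 and 135 UMIs in effector cells against 18, 28 and 8 in the other CD8 cells. In CPM this was 22.6, 134 and 58.4 against 19.5, 35.1 and 11.6, near equal in αPD-1 sample 1. Trbv19 was the leading gene of αPD-1 sample 2 and the next one of αPD-1 sample 3.

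Whether the difference between classes itself differed between the groups was tested with an interaction term. For CD8 against CD4 cells, 3 of 23 V genes tested were called, against 0.175% of 9152 genes. Trbv31 had an interaction of 6.37 on the log2 scale (adjusted p = 0.0115), from 20, 55 and 18 UMIs in CD8 and 16, 30 and 6 in CD4 cells with αPD-1, and 4, 365 and 2340 against 2, 0 and 4 with αPD-1 + corin. In CPM it was higher in CD8 than in CD4 cells only in αPD-1 + corin samples 2 and 3, where it led the effector cells. It was lower in CD8 cells in the αPD-1 samples (5.81, 16.2 and 6.00 against 25.6, 72.9 and 15.3 CPM). The same held in αPD-1 + corin sample 1 (3.59 against 8.07 CPM). The interactions of Trav14-2 (-5.92, adjusted p = 0.0173) and Trbv20 (-4.18, adjusted p = 0.0183) had the opposite sign. Trbv20 was lower in CD8 than in CD4 cells in CPM in every sample of both groups. Without 1 library the adjusted p of these 3 genes reached 0.0918, 0.125 and 0.297. For Foxp3+ against CD4 cells 0 of 7 V genes were called, against 0.713% of 6171 genes (1 at an unadjusted p under 0.05, with no other tool run). For CD8 effector against other CD8 cells, 1 of 22 V genes was called, against 1.33% of 9526 genes: Trbv19 (-2.21, adjusted p = 4.17e-05, and 0.608 without αPD-1 + corin sample 3).

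**Figure D5:**
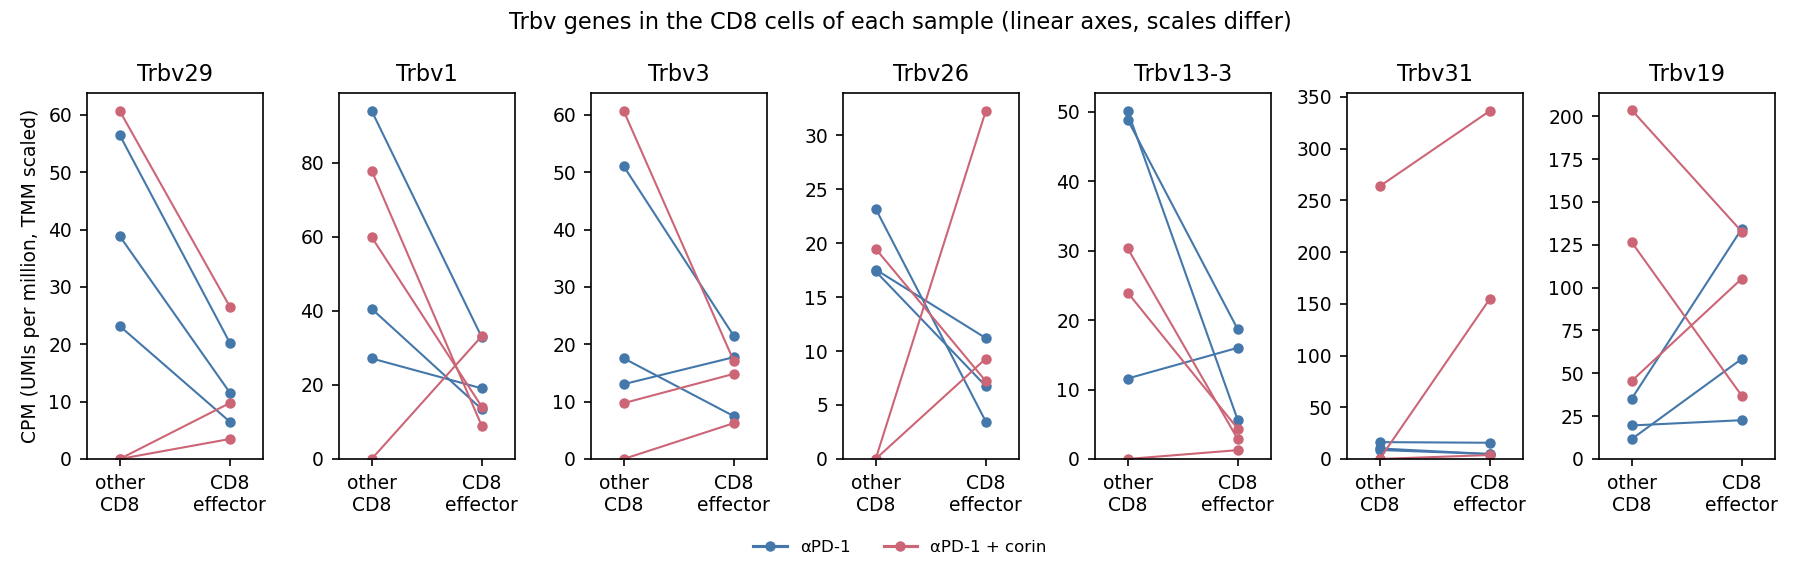
Levels of 7 Trbv genes (CPM, y axis, a scale of its own in each panel) in other CD8 cells and CD8 effector cells (x axis), with a line joining the values of each sample, coloured by group. Trbv29, Trbv1, Trbv3, Trbv26 and Trbv13-3 passed the test as lower in effector cells, while Trbv31 stands higher in effector cells of αPD-1 + corin samples 2 and 3.

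The other genes of the receptor and its signalling were read from 4 lists: 6 constant region and CD3 zeta genes, 15 proximal signalling genes, 11 genes of the response to antigen and 3 genes of V(D)J recombination. In CD8 effector cells against other CD8 cells, Trac, the α constant gene, was higher (log2 fold change 0.81, adjusted p = 3.31e-05, 6 of 6 samples) and so was Zap70, the kinase recruited to the receptor (0.67, adjusted p = 0.000403, 6 of 6 samples). Tnfrsf9, which codes for the costimulatory receptor 4-1BB, rose by 2.71 (adjusted p = 5.25e-09) and Pdcd1 by 2.94 (adjusted p = 0.0330). Ptpn22 (0.55), Ubash3a (0.60), Lcp2 (0.37), Nr4a2 (0.69) and Tnfrsf4 (1.73) passed as higher, and Skap1 (-0.87) as lower. Of the list genes tested, 1 of 4 constant and CD3 zeta, 4 of 15 signalling and 4 of 10 antigen response genes passed as higher. A further signalling gene passed as lower, and 24.6% of all 8602 genes were called. The V genes that passed in this comparison were all Trbv genes and lower. The β constant genes Trbc1 (0.14, adjusted p = 0.548) and Trbc2 (0.29, adjusted p = 0.109) did not pass, while the α constant gene was higher.

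Between the groups, CD8 effector cells had 0 of 5 constant and CD3 zeta genes, 0 of 15 signalling genes and 2 of 11 antigen response genes past the test. Over all 10629 genes tested in these cells, 2.13% were called. Nr4a3, an immediate early gene of receptor signalling, was at 61.1, 51.6 and 67.6 CPM with αPD-1 and at 92.5, 107 and 100 CPM with αPD-1 + corin (0.76 ± 0.14, adjusted p = 0.0288). Irf4, a transcription factor induced by receptor signalling, was at 76.8, 51.3 and 71.8 against 33.0, 39.7 and 36.2 CPM (-0.85 ± 0.17, adjusted p = 0.0467). Neither overlapped between groups, and they went opposite ways. In CD4 cells Irf4 (-1.94, adjusted p = 0.00037), Skap1 (-1.04, adjusted p = 0.00104) and Trbc1 (-1.38, adjusted p = 0.00357) were lower and Tnfrsf9 (1.07, adjusted p = 0.0261) and Nr4a3 (0.94, adjusted p = 0.0268) higher with αPD-1 + corin. In Foxp3+ cells Sh2d1a was lower (-1.64, adjusted p = 0.0198). Over all genes tested, 16.4% of 5590 were called in CD4 cells and 4.33% of 4780 in Foxp3+ cells.

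Rag1 had a UMI in 0 T cells of 5 samples and in 1 cell of αPD-1 + corin sample 3 and Rag2 in 0 of all 6. These are the recombinase genes, which mature T cells do not use. Dntt, which codes for the enzyme that adds bases at the junction, had UMIs in 3 to 17 T cells per sample. Foxp3+ cells compared with CD4 cells had Tnfrsf4 (1.83, adjusted p = 5.22e-09), Tnfrsf9 (1.75), Cd5 (0.57) and Trac (0.56) higher, and Themis (-1.64), Skap1 (-0.64) and Cd247 (-0.70) lower. CD8 cells compared with CD4 cells had Tnfrsf4 (-1.68), Cd5 (-1.01), Cd6 (-0.50), Cd247 (-0.50) and Nr4a1 (-0.49) lower, and Nr4a2 (0.99), Pdcd1 (0.96), Sh2d1a (0.67) and Themis (0.61) higher. Over all genes tested, 5.16% of 5078 were called between Foxp3+ and CD4 cells and 4.73% of 8244 between CD8 and CD4 cells.

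UMIs of the invariant α chains of unconventional T cells were found in few cells. Trav11, the V gene of natural killer T cells, was found in 1 T cell of αPD-1 + corin sample 2 and in 0 of the other samples, and its copy Trav11n in 0 to 2 cells. Traj18, the J segment of that chain, had UMIs in 1 to 4 T cells per sample. Trav1, the V gene of MAIT cells, was found in 10, 7 and 4 T cells with αPD-1 and 4, 4 and 27 with αPD-1 + corin, and Traj33, its usual J segment, in 0 to 4. A count of 0 allows 0.176% to 0.583% of T cells of a sample with a UMI of the gene, and since only 30.1% to 55.7% of T cells had any Trav UMI, it does not limit the share of natural killer T cells. UMIs of a V gene that conventional T cells use as well do not mark these cells alone.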

How the data were processed

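CD45+ cells of B16-F10 tumours were measured with 10x Genomics 5′ single-cell RNA sequencing in 6 libraries, 3 per group as given by the labels. The authors deposited raw UMI counts per gene and cell, made with Cell Ranger 8.0 per the labels. GRCm39 was the build, and positions and V exons were taken from the GENCODE annotation of that build. Seurat is also named in the submitters' processing notes. Of 52899 barcodes, 28866 were kept (600 to 4000 genes, at most 10% mitochondrial UMIs, 2002 Scrublet doublets removed at 0.4% per 1000 barcodes, run through scanpy 1.11.5).

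Classes, V gene calls and the coincidence were computed as the report defines them, on at least 10 called cells. Markers of other cells were left in place except in an alternative that drops cells with at least 2 of their UMIs. UMIs summed per sample and class were tested with edgeR 4.0.16 (quasi-likelihood, robust, TMM, filterByExpr) under R 4.3.3, with Benjamini-Hochberg adjustment over all genes tested and the sample as a term between classes. DESeq2 1.42.0 was an alternative. CPM in comparisons are TMM-scaled. Shares were compared with exact two-sided permutation tests in scipy 1.17.1. Genes named are up to 5 V genes rising and 5 falling most among those past an adjusted p of 0.05 (3 with the smallest p where none passed), the 5 Trbv and 5 Trav genes with the highest mean share of T cells, the leader of each class and sample, and the invariant chain and list genes. Combinations and their partners were picked after their values were seen. The tests were checked on simulated data. Per library there were 52281422 to 84276739 UMIs, and intervals and floors cover counting error only. The members and gene lists were chosen with earlier results of these data known. The junction (CDR3) sequences were not analysed here.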

Additional observations from a re-analysis of the deposited data

Results flagged for a closer look

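Differences between CD8 and CD4 cells that themselves differed between the treatment groups, by the interaction term of the edgeR fit, were found for 3 V genes. Trbv31 gave 6.37 (log2, SE 0.757, adjusted p = 0.0115), with 4, 365 and 2340 UMIs in CD8 cells of the αPD-1 + corin samples. With each library left out in turn it ranged from 5.51 to 7.01, with adjusted p from 1.25e-08 to 0.0918, above 0.05 without any of the αPD-1 samples 1, 2 and 3 (0.0853, 0.0918 and 0.0548) or αPD-1 + corin sample 3 (0.0644).

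Trav14-2 gave -5.92 (adjusted p = 0.0173), from 57, 55 and 3 UMIs in CD8 and 3, 4 and 1 in CD4 cells with αPD-1, against 0, 0 and 7 and 3, 8 and 3 with αPD-1 + corin. As CPM of the class totals this was 16.6, 15.8 and 1.00 in CD8 against 5.01, 10.1 and 2.77 in CD4 cells with αPD-1. With αPD-1 + corin it was 0, 0 and 0.921 against 12.5, 22.2 and 13.7. The interaction of Trav14-2 ranged from -8.92 to -5.21, with an adjusted p of 0.124, 0.0774 and 0.125 without αPD-1 sample 1, αPD-1 sample 2 and αPD-1 + corin sample 2. Trbv20 gave -4.18 (adjusted p = 0.0183), from 43, 45 and 17 against 14, 10 and 5 UMIs with αPD-1 and 0, 4 and 7 against 6, 5 and 13 with αPD-1 + corin. The CD8 sums come from more cells, and as CPM of the class totals Trbv20 was lower in CD8 cells in every sample. These CPM were 12.5, 13.0 and 5.68 against 23.4, 25.3 and 13.8 with αPD-1. With αPD-1 + corin they were 0, 1.51 and 0.921 against 24.9, 13.9 and 59.3. The interaction of Trbv20 ranged from -5.08 to -3.01, with an adjusted p of 0.0894, 0.0836 and 0.297 without αPD-1 sample 1, αPD-1 sample 2 and αPD-1 + corin sample 3. All of these rest on CD4 counts of 0 to 30 UMIs per sample.

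For CD8 effector against other CD8 cells the interaction of Trbv19 was -2.21 (adjusted p = 4.17e-05), from 57, 360 and 135 UMIs in effector and 18, 28 and 8 in other CD8 cells with αPD-1, against 111, 87 and 914 and 3, 13 and 17 with αPD-1 + corin. As CPM of the class totals Trbv19 was at 22.6, 134 and 58.7 in effector against 19.9, 35.3 and 11.6 in other CD8 cells with αPD-1. With αPD-1 + corin it was at 101, 34.1 and 121 against 50.6, 126 and 221, so it was lower in effector cells in samples 2 and 3. The interaction ranged from -2.67 to -1.65, with an adjusted p of 0.608 without αPD-1 + corin sample 3 and 0.05004 without αPD-1 + corin sample 1. Trbv31 was lower in effector than in other CD8 cells in 3 of 3 αPD-1 samples and higher in 3 of 3 αPD-1 + corin samples. The group means of these differences lay 80.5 CPM apart, although the interaction term (1.5, adjusted p = 0.1001) did not pass. The other CD8 cells of the αPD-1 + corin samples held 0, 0 and 22 Trbv31 UMIs in 14, 21 and 24 cells. Small differences are among those counted: 15.7 in effector against 16.3 TMM-scaled CPM in αPD-1 sample 2, and 3.79 against 0 in αPD-1 + corin sample 1. Groups of 3 samples were not tested for outlying values.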

How the results depend on the processing

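Differences are αPD-1 + corin minus αPD-1, in percentage points. Thinning to 1000 UMIs turned the Trbv coincidence of CD8 effector cells from 8.24 to -1.59, the share of the top Trbv gene from 12.7 to -2.61 and the share of cells with a Trbv call from -2.80 to 0.318. A call at 3 UMIs gave -0.147 for the CD4 coincidence (5.03) and -1.28 for the Foxp3+ coincidence (0.919), which was also -1.56 without cells holding B cell or macrophage UMIs and -1.22 with a Cd3 sum of 4. The share of called cells with 2 Trbv genes (0.695) was -3.28 with a call at 1 UMI and -4.83 with no upper limit on genes. Leaving out 1 sample gave -8.87 to 5.90 for it and -6.46 to 2.23 for the share of CD8 effector cells with a Trbv call. It kept the sign of every coincidence: 4.38 to 14.2 for Trbv, 11.2 to 25.6 for Trav and 13.6 to 27.2 for both chains in CD8 effector cells, 3.21 to 6.64 in CD4 and 0.561 to 1.49 in Foxp3+ cells. Thinned values for both chains together and for CD4 and Foxp3+ cells could not be given for lack of called cells.

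The number of V genes called between groups in T cells (5) was 10 with DESeq2, 9 with no filter on low counts, 8 with no doublet removal or no upper limit on genes, 0 without cells holding B cell or macrophage UMIs, and 0 to 5 with 1 sample left out. In CD8 effector cells (0) it was 2 with DESeq2, 3 with no filter and 0 to 1 with 1 sample left out. In CD4 cells (2) it was 1 with DESeq2, 8 with no filter, 1 without cells holding B cell or macrophage UMIs, 0 with cells counted in place of UMIs or a Cd3 sum of 4, and 1 to 3 with 1 sample left out. In Foxp3+ cells (0) it was 5 with no filter and 0 to 1 with 1 sample left out. CD8 against CD4 (1) gave 2 with DESeq2, 8 with no filter and 1 to 3 with 1 sample left out, and Foxp3+ against CD4 (0) gave 5 with no filter. CD8 effector against other CD8 (5) gave 3 with DESeq2, 14 with no filter, 2 with no upper limit on genes or with cells counted, 1 without cells holding B cell or macrophage UMIs, and 2 to 6 with 1 sample left out. The V genes named in these comparisons kept their direction in the alternatives run on them; genes outside the V loci were not put through these alternatives. The cause of these shifts was not tested.

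The replicate numbers of the labels did not pair the samples (correlations of deviations 0.128, 0.00890 and -0.249), and with a replicate block 3, 1, 1 and 1 V genes were called in T, CD8 effector, CD4 and Foxp3+ cells, while the shares gave exact p of 0.25 to 1.0. αPD-1 + corin samples 1 and 3 gave 51 and 46 CD4 cells, and depth there limits any statement on CD4 and Foxp3+ usage.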

Other observations

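Several leading β genes came with a pair of α genes in the same CD8 effector cells. Of 59 Trbv14 cells in αPD-1 + corin sample 3, 31 held Trav4-2, 30 held Trav10n and 19 held both. Of 53 Trbv14 cells in αPD-1 sample 2, 20 held Trav13-1, 19 held Trav16n and 16 held both. Of 331 Trbv31 cells in αPD-1 + corin sample 3, 248 held Trav14n-3 as counted above, 91 held Trav9-4 and 74 held both. The copies of the duplicated blocks limit what can be said of Trav10n, Trav16n and Trav9-4. Of 37 Trav14n-3 cells in αPD-1 sample 1, 18 held Trbv4, 12 held Trbv3 and 11 held Trav9n-4. These counts were read after the leading genes were known and have no test.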
